A study of Gallus gallus with 24 samples.

Results

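The set described here holds 7 genes known from the surface (coelomic) epithelium of the embryonic gonad: EMX2, LHX9, WT1, GATA4, KRT7, KRT18 and TGFBI. They were taken by symbol from a table of 24154 genes, and each of the 7 was found there and had enough reads to be tested, among 16694 genes tested in all. The samples were left and right gonads of female Leghorn chicken embryos, collected at embryonic day (E) 5, 6.5, 8 and 9.5, with 3 libraries for each gonad and stage and 24 libraries in all. By their labels the 8 groups differ in side and stage, and no treatment and no altered gene is given for any of them. Every library was made from polyadenylated RNA of gonads, with no sorting of cells stated. Nothing in the labels tells whether replicates are different embryos, pools of embryos or preparations made again from 1 source, so the p-values below reflect how far these libraries vary, which may be technical variation. In such bulk samples, fewer cells of a type and less RNA per cell cannot be told apart.

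The gonad forms as a thickening of the coelomic epithelium over the mesonephros, the embryonic kidney. In female birds the surface epithelium of the left gonad thickens into a cortex that takes in the germ cells, while that of the right gonad flattens and the right gonad later regresses. EMX2, LHX9, WT1 and GATA4 are transcription factors that the genital ridge of the mouse needs in order to form or grow, KRT7 and KRT18 are keratins of simple epithelia, and TGFBI is a secreted matrix protein induced by TGF-beta that binds collagens and integrins. None of the 7 is restricted to the surface epithelium: WT1 is also a podocyte gene, GATA4 and LHX9 are also made in deeper gonadal somatic cells, and the keratins are also made in kidney tubules and ducts.

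Library totals ran from 15078282 to 19970859 counts, and each member had between 466 and 19014 counts in every library. The part of counting error in the spread between libraries was not computed. Levels are given as CPM, the counts scaled to the same library total, and since transcript lengths were not used, they are compared between libraries and not between genes. Transcripts of neighbouring tissue were present. The summed level of 11 mesonephros markers lay between 59.07 and 957.4 CPM in left and between 197.4 and 2732 CPM in right libraries, and the 2 sides did not overlap at E8 or at E9.5. Summed adrenal and chromaffin markers reached 1921 CPM in the left and 245.5 CPM in the right libraries at E8. Summed germ cell markers were higher in every left library than in any right one of the same stage. Summed liver markers were highest in E6.5 left replicate 3 (278.6 CPM) and E8 right replicate 3 (2101 CPM). These are the 2 libraries with liver transcripts named below. At E8 the liver markers lay between 83.72 and 2101 CPM in right and between 16.93 and 28.41 CPM in left libraries. At E9.5 they lay between 46.01 and 209.6 CPM in right and between 11.26 and 25.77 CPM in left libraries. Leaving out those 2 libraries does not remove this side difference. The mean log2 CPM of 9 stroma markers was higher in every right library than in any left one of the same stage. At E9.5 the margin was narrow (lowest right 8.471, highest left 8.47). Their summed CPM overlapped between the sides at every stage but E8. No fit took a stroma, germ cell or liver score as a covariate. The part of these other cells in the differences of the members was not tested beyond the values given with each result. WNT7A, a Müllerian duct marker, was at most 0.919 CPM. Summed with PAX2 and LHX1, which also stand among the mesonephros markers, the 3 genes reached at most 116.4 CPM. That sum lay between 38.93 and 58.94 CPM in right and between 15.04 and 19.18 CPM in left libraries at E8. At E9.5 it lay between 28.9 and 57.53 CPM in right and between 7.271 and 12.03 CPM in left libraries. Right libraries also lay above left ones at E5, and the sides overlapped at E6.5. Of a list of 17 surface epithelium and mesothelium genes, UPK3B, CALB2 and MUC16 had 5, 85 and 21 counts over all libraries together. MSLN had group means between 3.75 and 7.29 CPM. Other genes of the list were read far more often: LRRN4, BNC1 and PODXL had 42282, 54180 and 196626 counts over all libraries together. Enough reads for a test were found for 14 of the 17.

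**Figure D1:**
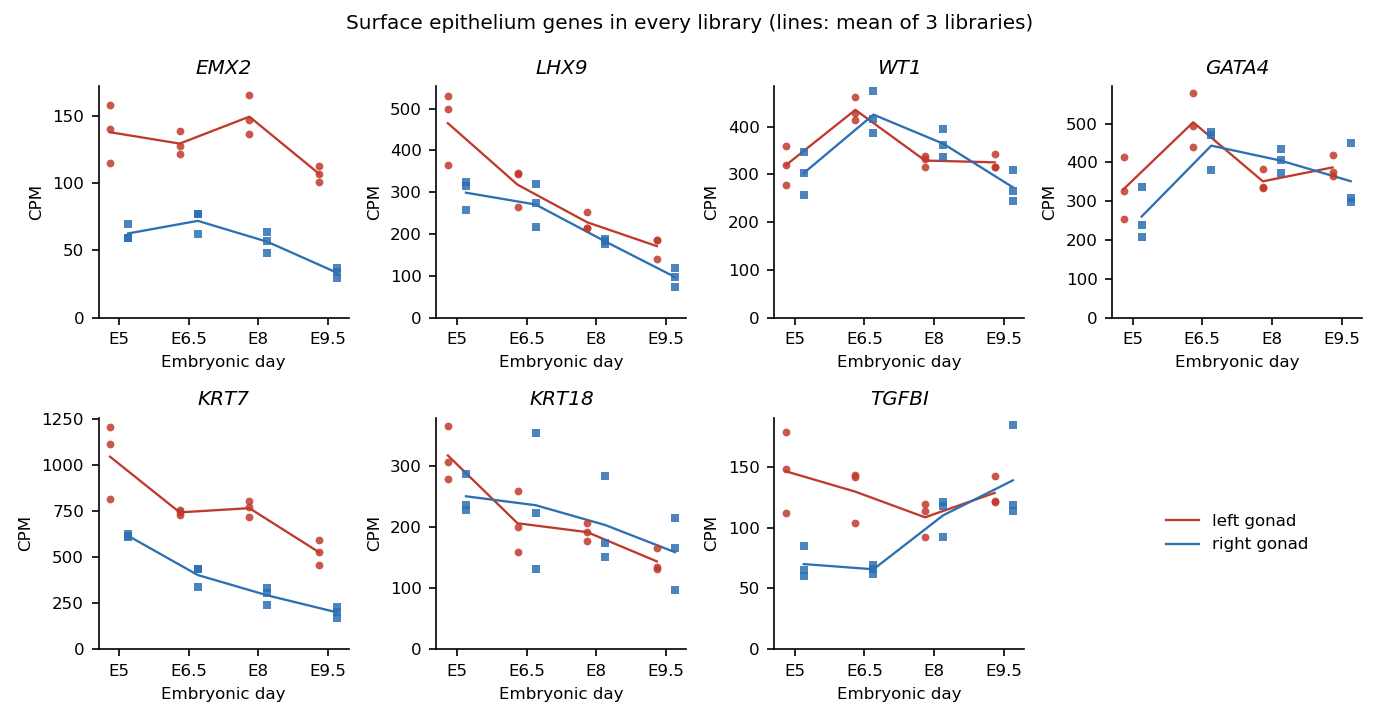
Level of each of the 7 genes (CPM, linear axis from 0) against embryonic day, with 1 point per library and lines through the means of the 3 libraries of a group, left gonad and right gonad. EMX2 and KRT7 lie higher in every left library than in any right library of the same stage, and TGFBI does so at E5 and E6.5 only. GATA4 and KRT18 overlap between the sides at every stage, and WT1 at every stage but E9.5.

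The question asked of each stage was which of these genes differed between left and right. EMX2 and KRT7 were higher in the left gonad at all 4 stages, TGFBI at E5 and E6.5, and LHX9 at E9.5, while WT1, GATA4 and KRT18 did not pass the test at any stage. Each difference was tested with the quasi-likelihood test of edgeR, and p-values were adjusted by the Benjamini-Hochberg method over all 16694 genes, with a threshold of 0.05. This fit did not pair libraries. With left and right libraries of the same number paired, LHX9 also passed at E5 (adjusted p = 8.1e-04, edgeR) and at E8 (0.015). The data showed such a pairing at E5, but not in all pairs at E8. At E5, 3 of the 7 genes were higher in left gonads and none was lower, against 1.92% of all genes tested that were higher and 1.02% that were lower. At E6.5, 3 of 7 were higher and none was lower, against 2.67% and 0.575% of all genes. At E8, 2 of 7 were higher and none was lower, against 7.54% and 6.71% of all genes. At E9.5, 3 of 7 were higher and none was lower, against 5.13% and 7.87% of all genes. The 7 genes were chosen with earlier results of these data known, so an excess over such shares, here and below, is description alone. EMX2 and KRT7 stand among 60 genes of the table, 0.359% of those tested, that were higher on the left with an adjusted p under the threshold at every stage. The median log2 difference of the 7 genes was 0.64 at E5, 0.23 at E6.5, -0.02 at E8 and 0.25 at E9.5, and that of all genes tested lay between -0.038 and -0.0034 at these stages. Every left library lay above every right one for 4 members at E5, 3 at E6.5, 3 at E8 and 4 at E9.5, where 9.31%, 9.48%, 18.1% and 10.4% of all genes did so. EMX2 and KRT7 showed this at all 4 stages, as 187 genes of the table did (1.12%).

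**Figure D2:**
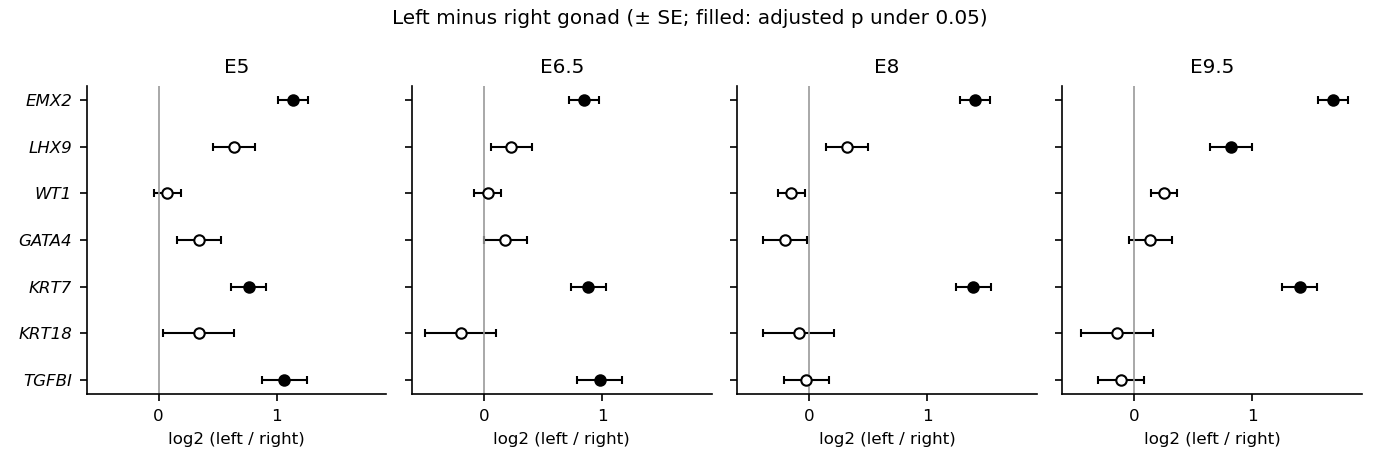
Left minus right difference of each gene (log2, points with SE bars, 3 libraries on each side) at the 4 stages, with filled points for an adjusted p under 0.05. EMX2 lies between 0.85 and 1.68 at every stage, and TGFBI lies at 1.07 and 0.98 at the first 2 stages and near 0 at the last 2.

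EMX2, a homeobox factor without which the mouse gonad does not form, had the largest difference of the 7 between the sides at E5, E8 and E9.5. At E5 it had 114.8, 140.3 and 158.4 CPM in left and 59.48, 58.85 and 69.35 CPM in right libraries. At E9.5 it had 106.8, 112.9 and 101.1 CPM in left and 29.53, 36.81 and 33.53 CPM in right libraries. The lowest left library lay above the highest right one at every stage. The difference was 2.20-fold at E5 (log2 1.14 ± 0.13 SE, adjusted p = 1.96e-05, edgeR) and 3.21-fold at E9.5 (log2 1.68 ± 0.13 SE, adjusted p = 9.37e-08, edgeR). Between them it was log2 0.85 ± 0.13 at E6.5 (adjusted p = 5.69e-04, edgeR) and 1.41 ± 0.13 at E8 (adjusted p = 7.76e-07, edgeR). Each of these 4 calls stood in every alternative tried. The difference at E9.5 was larger than that at E5 by log2 0.54 ± 0.18, which did not pass (adjusted p = 0.135, edgeR) and passed with the replicate block (0.56, adjusted p = 0.026). The test of any variation over the 4 stages gave an adjusted p of 0.0507. That second value lay under the threshold without E5 left replicate 1 (0.044) or 3 (0.034), E6.5 right replicate 2 (0.036), E8 right replicate 1 (0.036) or E9.5 right replicate 2 (0.040), and with several other settings given in the closing section.

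KRT7, a type II keratin, was also higher on the left at every stage, and its groups did not overlap at any of them. At E5 it had 816.3, 1116 and 1208 CPM in left and 609.5, 614.7 and 624.5 CPM in right libraries. At E9.5 it had 592.2, 529.2 and 459.3 CPM in left and 229.6, 202.3 and 166.6 CPM in right libraries. The 3 right libraries at E5 lay within a narrow band, and the left ones spread over a wider range. The difference was log2 0.76 ± 0.15 SE at E5 (adjusted p = 0.00534, edgeR), and there it fell short of the threshold without E5 left replicate 3 (log2 0.64, adjusted p = 0.055). It was 0.88 ± 0.15 at E6.5, 1.39 ± 0.15 at E8 and 1.40 ± 0.15 at E9.5, with adjusted p-values of 0.00157, 6.55e-06 and 5.83e-06 (edgeR), and these 3 calls stood in every alternative tried. The difference at E9.5 was larger than that at E5 by log2 0.64 ± 0.21, which did not pass (adjusted p = 0.131, edgeR) and passed with the replicate block, which pairs left and right libraries of the same number (0.66, adjusted p = 0.027).

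LHX9, a LIM homeobox factor, lay higher in every left library than in any right one at E5, E8 and E9.5, but in the edgeR fit of all libraries it passed at E9.5 alone. At E9.5 it had 186.8, 185.9 and 140.3 CPM in left and 119.4, 97.74 and 73.92 CPM in right libraries, a difference of log2 0.82 ± 0.18 SE (adjusted p = 0.00584, edgeR). With the mesonephros score as a covariate this difference was log2 0.63 (adjusted p = 0.080), and the mesonephros markers themselves summed to between 59.07 and 258.3 CPM in left and between 545.7 and 2437 CPM in right libraries at this stage. At E5 it had 365.2, 499.2 and 531.4 CPM in left and 257.6, 325.1 and 314.2 CPM in right libraries. That difference, log2 0.64 ± 0.18 SE, lay just above the threshold (adjusted p = 0.0546, edgeR). It passed with the replicate block (0.63, adjusted p = 8.1e-04), with DESeq2 (0.64, adjusted p = 0.017), with the mesonephros score as a covariate (0.61, adjusted p = 0.043) and without E5 left replicate 1 (0.79, adjusted p = 0.025). At E6.5 the sides overlapped (log2 0.23 ± 0.18, adjusted p = 0.589), and at E8 they did not, by a small margin (log2 0.32 ± 0.18, adjusted p = 0.234, and 0.022 in the fit of the 2 groups alone).

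TGFBI was higher on the left at the 2 early stages and did not pass at the 2 late ones. At E5 it had 112.1, 148.1 and 178.7 CPM in left and 65.17, 59.86 and 84.77 CPM in right libraries, and at E6.5 it had 104.1, 141.4 and 143 CPM in left and 69.37, 62.11 and 65.48 CPM in right libraries. The sides did not overlap at either stage, and the differences were log2 1.07 ± 0.19 SE (adjusted p = 0.00315, edgeR) and 0.98 ± 0.19 SE (adjusted p = 0.00637, edgeR). The call at E6.5 was lost in the fit of the 2 groups alone (0.98, adjusted p = 0.054). At E9.5 it had 121.9, 121.4 and 142.2 CPM in left and 118.3, 113.8 and 184.3 CPM in right libraries, and the sides overlapped there and at E8, with differences of log2 -0.11 ± 0.19 and -0.02 ± 0.19 (adjusted p = 0.759 and 0.957, edgeR). The difference at E9.5 was smaller than that at E5 by a tested log2 change of -1.18 ± 0.27 SE (adjusted p = 0.0219, edgeR), which 2.20% of all genes tested passed, and TGFBI was the only 1 of the 7 to pass in this fit (3 of the 7 with the replicate block). It was also the only 1 of the 7 whose side difference varied over the 4 stages by the test with all stages in this fit (adjusted p = 0.0178, edgeR; 4 of the 7 with the block), a test passed by 2.05% of all genes. Both calls were missed with 1 library or another left out, which also leaves fewer libraries to test. The change itself stayed between -1.47 and -0.91 in all alternatives. Without E5 left replicate 3 the change was -0.96 (adjusted p = 0.093) and without E9.5 right replicate 3 it was -0.91 (adjusted p = 0.071). The change also missed the threshold without E5 left replicate 2, E5 right replicate 1 or 2, or E9.5 left replicate 1 or 2, at values between -1.14 and -1.05. The test over all stages missed it without E5 left replicate 2 or 3, E5 right replicate 1 or 2, E8 right replicate 2 or E9.5 left replicate 1 or 2, with adjusted p-values between 0.053 and 0.060, and without the 2 libraries with liver transcripts (0.070). With the mesonephros or the adrenal score as a covariate the change was -1.44 and -1.47, and it passed with either.

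WT1 and GATA4 did not differ between the sides by the test at any stage. WT1, a zinc finger factor, had 343.5, 315.5 and 316.2 CPM in left and 266, 244.5 and 308.1 CPM in right libraries at E9.5, the only stage at which its sides did not overlap (log2 0.25 ± 0.11 SE, adjusted p = 0.151, edgeR). At the other 3 stages its difference was 0.08 ± 0.11, 0.03 ± 0.11 and -0.15 ± 0.11 on the log2 scale, in the order E5, E6.5 and E8. WT1 is also a podocyte gene, and 3 of 4 podocyte markers were lower on the left at E9.5, against 7.87% of all genes tested. The 4 markers summed to between 40.53 and 59.95 CPM in left and between 101.8 and 583.1 CPM in right libraries. The part of podocytes in the WT1 values was not tested. GATA4, a GATA zinc finger factor, overlapped between the sides at every stage. At E9.5 it had 376.2, 365.6 and 418.9 CPM in left and 307.9, 297.2 and 449.3 CPM in right libraries. Its difference was log2 0.35 ± 0.19 at E5, 0.18 ± 0.19 at E6.5, -0.20 ± 0.19 at E8 and 0.14 ± 0.19 at E9.5, with adjusted p-values between 0.489 and 0.711 (edgeR). A p above the threshold does not show that the levels of WT1 or GATA4 were equal. In RefSeq's table GATA4 overlaps an uncharacterised locus, LOC100858393, with 10603 counts over all libraries against 150707 for GATA4, and EMX2 overlaps LOC107053726, with 49 counts against 37287 for EMX2. As no strand setting for the counting is given in the sources used here, reads of such pairs cannot be told apart.

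KRT18, a type I keratin that pairs with KRT8, had the widest spread between libraries of a group, with a median coefficient of variation of 19.2%. At E9.5 it had 166, 131.9 and 134.1 CPM in left and 96.4, 214.5 and 166.4 CPM in right libraries, and the sides overlapped at every stage. Its differences were log2 0.34 ± 0.30 at E5, -0.19 ± 0.30 at E6.5, -0.08 ± 0.30 at E8 and -0.14 ± 0.30 at E9.5, none of which passed (adjusted p between 0.802 and 0.883, edgeR). In the right gonad, the library with most KRT18 at each stage was also the one with most mesonephros transcripts. These were replicate 1 at E5, replicate 3 at E6.5 (354.8 CPM of KRT18 beside 2732 CPM of summed mesonephros markers), replicate 1 at E8 (284.8 beside 1905 CPM) and replicate 2 at E9.5 (214.5 beside 2437 CPM). In the left gonad the same held at E6.5 only: the left library with most KRT18 had the least mesonephros transcripts at E5 (366.8 CPM of KRT18 beside 155.9 CPM of summed markers) and at E8 (207.2 beside 177.6 CPM), and at E9.5 (166 beside 93.21 CPM) another library had more of them. With the mesonephros score as a covariate the difference was 0.43, 0.25, 0.30 and 0.55 at the 4 stages, and did not pass at any. Reads of KRT18 per 100 reads of KRT8 were 43, 41.9 and 43.2 in left and 42.1, 88.9 and 55.7 in right libraries at E9.5, so the high right library stood out on that scale also. The part of mesonephros tissue in the KRT18 values was not tested beyond these values.

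**Figure D3:**
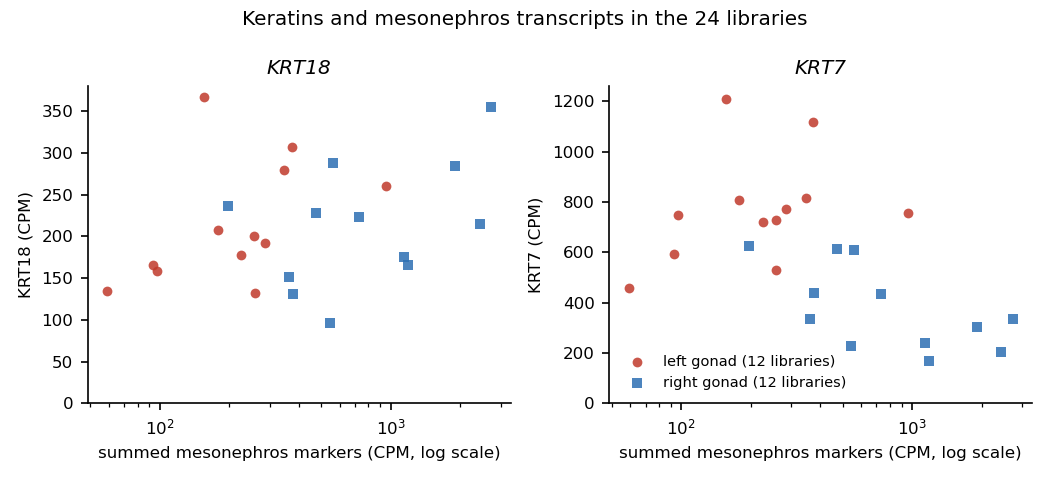
Level of KRT7 and KRT18 (CPM, linear axis from 0) against the summed level of the 11 mesonephros markers in the same library (CPM, log axis), 12 left and 12 right libraries, 1 point each. The right libraries with 1905, 2437 and 2732 CPM of mesonephros markers hold 284.8, 214.5 and 354.8 CPM of KRT18, and their KRT7 levels of 303.6, 202.3 and 336.9 CPM lie below that of every left library.

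The second question was how the genes changed with time in each gonad. LHX9 and KRT7 were lower at E9.5 than at E5 in both gonads, EMX2 was lower in both, KRT18 was lower in the left, and TGFBI was higher in the right. In the left gonad 4 of the 7 genes were lower at E9.5 than at E5 and none was higher, against 16.0% and 18.2% of all genes tested. In the right gonad 3 of 7 were lower and 1 was higher, against 16.1% and 21.5% of all genes. The median log2 change of the 7 was -0.37 in left gonads and -0.66 in right gonads, beside 0.0049 and 0.035 over all genes tested. Stages whose libraries did not overlap are described below without the share of all genes for which this held, and are not support by themselves.

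**Figure D4:**
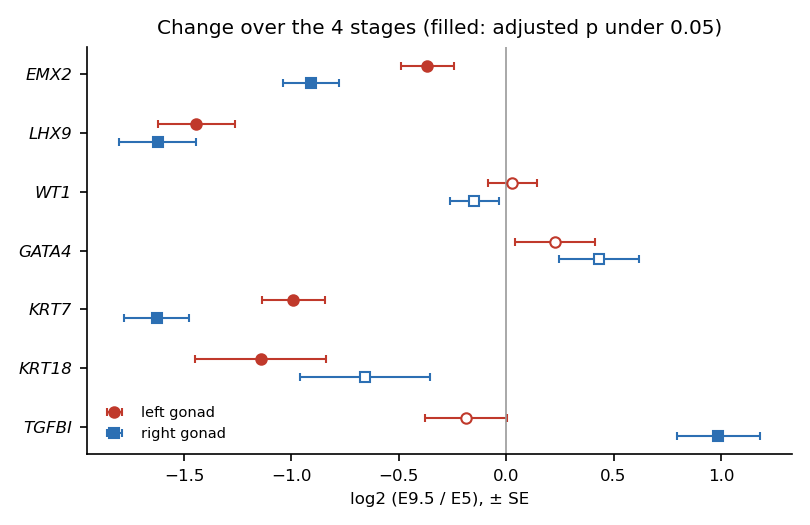
Change of each gene between E5 and E9.5 (log2 of E9.5 over E5, points with SE bars, 3 libraries in each group) in left gonads and in right gonads, with filled points for an adjusted p under 0.05. LHX9 lies at -1.44 and -1.62, KRT7 at -0.99 and -1.63 and EMX2 at -0.37 and -0.91 in left and right gonads, and TGFBI lies at -0.19 on the left and 0.99 on the right.

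LHX9 fell most of the 7 in the left gonad. At E5, E6.5, E8 and E9.5 it averaged 465.3 ± 88.1, 318.2 ± 46.2, 228.1 ± 21.6 and 171 ± 26.6 CPM in left gonads (SD, n = 3 each, here and for the means below). In right gonads it averaged 298.9 ± 36.2, 270.6 ± 51.8, 182.1 ± 5.18 and 97.02 ± 22.8 CPM. Ordered by level, E5 left libraries lay above all others, then came the E6.5 left, E5 right, E6.5 right and E8 left groups, each overlapping with the next, then E8 right and E9.5 left, which overlapped, and last E9.5 right. The E9.5 libraries lay below the E5 ones on both sides, and the change was log2 -1.44 ± 0.18 SE in left (adjusted p = 2.45e-06, edgeR) and -1.62 ± 0.18 SE in right gonads (adjusted p = 6.54e-07, edgeR). KRT7 averaged 1047 ± 205, 743.8 ± 14.9, 766.8 ± 44.1 and 526.9 ± 66.5 CPM in left gonads, from E5 to E9.5. In right gonads it averaged 616.2 ± 7.61, 403 ± 57.2, 292.1 ± 48.7 and 199.5 ± 31.6 CPM. Ordered by level its groups stood clear of their neighbours, except E8 left and E6.5 left, which overlapped. Its change was -0.99 ± 0.15 SE in left (adjusted p = 2.49e-05, edgeR) and -1.63 ± 0.15 SE in right gonads (adjusted p = 5.51e-08, edgeR), and the E9.5 libraries lay below the E5 ones on both sides. These 4 calls stood in every alternative tried.

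EMX2 averaged 137.8 ± 21.9, 129.3 ± 8.46, 149.4 ± 14.8 and 106.9 ± 5.89 CPM in left gonads, from E5 to E9.5. In right gonads it averaged 62.56 ± 5.89, 71.93 ± 8.39, 56.35 ± 7.81 and 33.29 ± 3.64 CPM. In right gonads the change at E9.5 was log2 -0.91 ± 0.13 SE (adjusted p = 1.36e-05, edgeR), and it stood in every alternative tried. In left gonads it was -0.37 ± 0.13 SE (adjusted p = 0.0283, edgeR), which was lost without E5 left replicate 2 (adjusted p = 0.051) or 3 (log2 -0.27, adjusted p = 0.14) and without E9.5 left replicate 1 (0.054) or 3 (0.071). With the adrenal score as a covariate the left change was -0.29 (adjusted p = 0.14), and adrenal and chromaffin markers summed to between 444.3 and 1204 CPM in E9.5 and between 230.2 and 289.7 CPM in E5 left libraries. From its highest to its lowest group mean EMX2 spanned a ratio of 4.49, the order being left gonads at E8, E5, E6.5 and E9.5, then right gonads at E6.5, E5, E8 and E9.5. In that order neighbouring groups overlapped within the first 3 left groups and within the first 3 right groups, while the left E9.5 group stood clear of both neighbours and the right E9.5 group of the group before it.

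TGFBI was higher at E9.5 than at E5 in right gonads and did not pass in left gonads, and the gonads differed in this by the tested change of the side difference given above. It averaged 146.3 ± 33.3, 129.5 ± 22, 108.4 ± 14.2 and 128.5 ± 11.9 CPM in left gonads from E5 to E9.5. In right gonads it averaged 69.93 ± 13.1, 65.65 ± 3.63, 110 ± 15.8 and 138.8 ± 39.5 CPM. The 2 lowest groups, E5 and E6.5 right, overlapped with each other and stood clear of the other 6. The right change at E9.5 was log2 0.99 ± 0.19 SE (adjusted p = 4.27e-04, edgeR), with every E9.5 library above every E5 one, and it stood in every alternative tried. The left change was -0.19 ± 0.19 SE (adjusted p = 0.49, edgeR), with overlapping groups.

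KRT18 averaged 318 ± 44.5, 206.6 ± 50.6, 192.1 ± 14.9 and 144 ± 19.1 CPM in left gonads from E5 to E9.5. In right gonads it averaged 250.9 ± 32.4, 236.3 ± 112, 203.7 ± 71.2 and 159.1 ± 59.4 CPM, and ordered by level each group overlapped with the next. The E9.5 libraries lay below the E5 ones on both sides. The change was log2 -1.14 ± 0.30 SE in left gonads (adjusted p = 0.00596, edgeR), and -0.66 ± 0.30 SE in right gonads, which did not pass (adjusted p = 0.0942, edgeR). Without E9.5 right replicate 2, the library rich in mesonephros transcripts, the right change was -1.002 (adjusted p = 0.025). With the mesonephros score as a covariate it was -1.15 (adjusted p = 0.0018), and with the adrenal score the left change was -0.89 (adjusted p = 0.056). DESeq2 also passed the right change (log2 -0.69, adjusted p = 0.049), as did the adrenal score (-0.80, adjusted p = 0.050). Its partner KRT8 did not follow it: KRT8 averaged 337.3 ± 42.5 CPM at E9.5 and 282.5 ± 59.1 CPM at E5 in left gonads (SD, n = 3 each), a change of log2 0.26 ± 0.14 SE that did not pass (adjusted p = 0.184, edgeR).

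WT1 and GATA4 were highest at E6.5 on both sides. WT1 averaged 318.8 ± 40.5, 435 ± 25.2, 328.9 ± 11.2 and 325.1 ± 16 CPM in left gonads from E5 to E9.5. In right gonads WT1 averaged 302.6 ± 44.7, 425 ± 44.4, 364.2 ± 29 and 272.9 ± 32.4 CPM. GATA4 averaged 330.7 ± 79.5, 503.2 ± 70.4, 351.1 ± 27.1 and 386.9 ± 28.2 CPM in left and 260.3 ± 68, 443 ± 53.5, 404.3 ± 31.2 and 351.5 ± 84.9 CPM in right gonads. Ordered by level, each group of either gene overlapped with the next. At E6.5 each library of a side lay above each E5 library of that side for both genes. The change at E6.5 against E5 was log2 0.45 ± 0.11 in left and 0.49 ± 0.11 in right gonads for WT1 (adjusted p = 0.0127 and 0.00543, edgeR), and 0.61 ± 0.19 and 0.77 ± 0.19 for GATA4 (adjusted p = 0.0415 and 0.00763, edgeR). All 4 calls were lost without some library: the left ones without E5 left replicate 1 or 2 or E6.5 left replicate 2 (for GATA4 also E6.5 left replicate 3), with adjusted p-values between 0.062 and 0.27, and the right ones without E5 right replicate 1 (for GATA4 also replicate 2), between 0.059 and 0.067. At E9.5 against E5 neither gene passed on either side. In right gonads the change was 0.43 ± 0.19 for GATA4 (adjusted p = 0.0731, edgeR), which passed without E5 right replicate 3 (log2 0.62, adjusted p = 0.020) and with the mesonephros score as a covariate (0.71, adjusted p = 0.0025), and -0.15 ± 0.11 for WT1, which passed without E5 right replicate 1 (log2 -0.32, adjusted p = 0.050).

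Between neighbouring stages most calls were lost with 1 library or another left out, which also leaves fewer libraries to test. At E6.5 against E5, 2 of the 7 genes were higher and 1, KRT7, was lower in each gonad, against 6.38% and 4.04% of all genes in left and 8.39% and 6.69% in right gonads. KRT7 changed by log2 -0.49 in left gonads, a call lost without E5 left replicate 2 or 3 or any E6.5 left replicate. Without E6.5 left replicate 1, 2 or 3 the value was -0.50, -0.52 and -0.50, so it stayed near that of all libraries. In right gonads KRT7 changed by -0.61, a call lost without E6.5 right replicate 3 (adjusted p = 0.056). At E8 against E6.5, WT1 was the only member to pass in the left gonad, where it was lower (log2 -0.40, adjusted p = 0.0172, edgeR), against 19.4% of all genes in either direction. The call of WT1 was lost without E6.5 left replicate 2 or E8 left replicate 3, and with the adrenal score as a covariate (adjusted p = 0.102). GATA4 (log2 -0.52, adjusted p = 0.0549, edgeR) and LHX9 (-0.48, adjusted p = 0.0615, edgeR) fell just short there. Both passed with DESeq2, in the fit of the 2 groups alone and with the replicate number as a factor. The right gonad had 1 higher and 2 lower members at that step, against 10.8% and 9.72% of all genes. These were TGFBI (0.74), KRT7 (-0.46) and LHX9 (-0.57), all lost without E6.5 right replicate 2 or E8 right replicate 2, LHX9 and KRT7 also without E6.5 right replicate 1, and LHX9 and TGFBI also without E8 right replicate 3. At E9.5 against E8, no member passed in the left gonad with edgeR at an adjusted p under 0.05, where 1.88% of all genes did. At an unadjusted p under 0.05 there were 3 (EMX2, KRT7 and LHX9), and DESeq2 called EMX2 and KRT7 lower there (adjusted p = 0.017 and 0.023).

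In right gonads EMX2, LHX9, KRT7 and WT1 were lower at E9.5 than at E8. These were 4 of the 7 genes, and none was higher, against 1.34% and 1.87% of all genes tested. The share of the whole table is itself unsteady at this step: 536 genes passed in either direction, between 131 and 750 with 1 library left out, and 3 in the fit of the 2 groups alone. EMX2 had 29.53, 36.81 and 33.53 CPM at E9.5 and 63.66, 57.27 and 48.12 CPM at E8, a change of log2 -0.76 ± 0.13 SE (adjusted p = 0.0030, edgeR). LHX9 had 119.4, 97.74 and 73.92 CPM at E9.5 and 182.1, 187.4 and 177 CPM at E8, a change of -0.91 ± 0.18 SE (adjusted p = 0.00963, edgeR). For both genes the stages did not overlap, and both calls stood with each library left out in turn and were lost in the fit of the 2 groups alone (adjusted p = 0.17 for each). KRT7 (-0.55, adjusted p = 0.0467, edgeR) and WT1 (-0.42, adjusted p = 0.0491, edgeR) lay just under the threshold. KRT7 lost its call without any library but E8 right replicate 2, and WT1 without any but E9.5 right replicate 3, among the 6 compared.

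The genes were also set against GATA4 in the same library, since GATA4 did not pass between the sides, which does not show equal levels. This scale was chosen after the data were seen, has no test, and leaves out library totals. EMX2 had 28.4, 30.9 and 24.1 reads per 100 GATA4 reads in left and 9.59, 12.4 and 7.46 in right libraries at E9.5, and the sides did not overlap at any stage. KRT7 averaged 137 ± 24.7 reads per 100 GATA4 reads in left and 59.9 ± 20 in right libraries at E9.5 (SD, n = 3 each), and on this scale its sides overlapped at E5. LHX9 averaged 44.7 ± 9.69 in left and 29.4 ± 11.6 in right libraries at E9.5 (SD, n = 3 each). Its sides overlapped on this scale at E5, E6.5 and E9.5, and did not at E8. TGFBI turned round: it had 44.2, 45.5 and 43.3 reads per 100 GATA4 reads in left and 27.5, 29 and 25.2 in right libraries at E5, and 32.4, 33.2 and 34 in left and 38.4, 38.3 and 41 in right libraries at E9.5. On this scale the TGFBI sides did not overlap at either stage, left being above right at E5 and below it at E9.5. In CPM the TGFBI sides overlapped at E9.5 (log2 -0.11 ± 0.19 SE), where GATA4 lay at 0.14 ± 0.19 SE, so the order on this scale takes in GATA4 also. The share of all genes without overlap on this scale was not computed. In CPM, E9.5 right replicate 3 was the highest right library at that stage for TGFBI (184.3 CPM) and for GATA4 (449.3 CPM) alike.

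**Figure D5:**
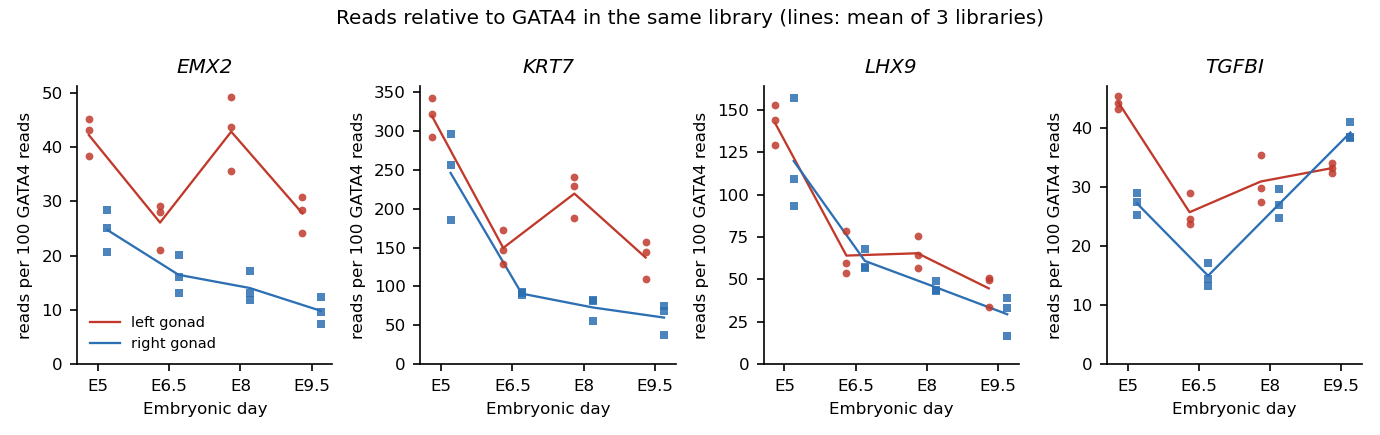
Reads of EMX2, KRT7, LHX9 and TGFBI per 100 reads of GATA4 in the same library (linear axis from 0) against embryonic day, 1 point per library and lines through the means of 3 libraries, left and right gonads. EMX2 averages 27.8 on the left and 9.81 on the right at E9.5, and LHX9 44.7 and 29.4, with overlapping sides. TGFBI crosses over on this scale, with left means of 44.3 at E5 and 33.2 at E9.5 and right means of 27.2 and 39.2.

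Other genes of the surface epithelium and mesothelium were read from a list of 17, of which 14 were tested. At E5 1 was higher and 1 lower in left gonads, at E6.5 none passed with edgeR, at E8 1 was lower, and at E9.5 1 was higher and 2 were lower. Over all genes tested, 1.92% were higher and 1.02% lower at E5, 2.67% and 0.575% at E6.5, 7.54% and 6.71% at E8, and 5.13% and 7.87% at E9.5. The list's median log2 difference lay between -0.18 and 0.12. At E6.5 4 of the list had an unadjusted p under 0.05, and DESeq2 called 1, CLDN1, a tight junction protein. CDH2, the cadherin of mesothelium, was the higher one at E5, with 789 ± 143 CPM in left and 504.5 ± 52.7 CPM in right gonads (SD, n = 3 each, log2 0.65 ± 0.12 SE, adjusted p = 0.0033, edgeR), a call lost in the fit of the 2 groups alone (adjusted p = 0.076). The call of TBX18 at E5 was lost without E5 left replicate 1 or 2 or E5 right replicate 1 or 3, and those of CDH2 and CLDN1 at E9.5 without any library compared but E9.5 right replicate 3, and with the mesonephros score (adjusted p = 0.33 and 0.24) or the adrenal score (0.088 and 0.25) as a covariate. TBX18, a T-box factor of the coelomic epithelium and its mesenchyme, was lower on the left at E8 (log2 -0.99 ± 0.20 SE, adjusted p = 0.0027, edgeR) and E9.5 (-1.01 ± 0.21 SE, adjusted p = 0.0042, edgeR, and 0.072 in the fit of the 2 groups alone). Over time 2 of the 14 were higher and 7 lower at E9.5 than at E5 in left gonads, and 2 higher and 4 lower in right gonads, where 18.2% of all genes tested were higher and 16.0% lower in left gonads, and 21.5% and 16.1% in right gonads. TBX18 fell most, with 3.62 ± 0.50 CPM at E9.5 and 61.5 ± 13.7 CPM at E5 in left gonads (SD, n = 3 each, log2 -4.08 ± 0.21 SE, adjusted p = 2.2e-11, edgeR). BNC1, a mesothelial zinc finger factor, changed by -1.50 ± 0.16 in left and -1.91 ± 0.17 in right gonads, and GPM6A and the keratin KRT19 were higher at E9.5 in both gonads (log2 1.64 and 1.09 in left gonads, 1.51 and 0.97 in right ones).

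Other factors of the genital ridge were read from a list of 12. Of 11 ridge factors tested, 1 was higher and 2 lower on the left at E5, 1 lower at E6.5, 4 lower at E8 and 2 lower at E9.5, where 1.92% of all genes tested were higher and 1.02% lower at E5, and 0.575%, 6.71% and 7.87% were lower at the later stages. TCF21, a helix-loop-helix factor of mesenchyme, was the one lower on the left at every stage: at E9.5 it had 42.4 ± 2.91 CPM in left and 92 ± 8.02 CPM in right gonads (SD, n = 3 each, log2 -1.12 ± 0.18 SE, adjusted p = 5.1e-04, edgeR). At E6.5 its call was lost without any of the 6 libraries but E6.5 left replicate 3, in the fit of the 2 groups alone (adjusted p = 0.29) and with the mesonephros score as a covariate (0.096). At E5 the calls of NR5A1 and ZFPM2 were each lost without any 1 of 4 of the 6 libraries. NR0B1, a nuclear receptor of the gonad and adrenal, was lower on the left at E8 (log2 -1.16 ± 0.14 SE) and E9.5 (-0.76 ± 0.14 SE). Over time NR5A1, the steroidogenic nuclear receptor, was higher at E9.5 than at E5 in left (log2 1.55 ± 0.25 SE) and right gonads (2.42 ± 0.26 SE), among 4 higher and 4 lower ridge factors in left and 2 higher and 3 lower in right gonads (over all genes 18.2% and 16.0% in left, 21.5% and 16.1% in right gonads). In left gonads the call of GATA6 was lost without any 1 of the 6 libraries compared, that of OSR1 without any 1 of 4 and that of TCF21 without any 1 of 2. With the adrenal score as a covariate GATA6 and OSR1 also missed the threshold (adjusted p = 0.23 and 0.155, edgeR).

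Genes of TGF-beta signalling and of the integrins that TGFBI is known to work with were read from a list of 13. Of 12 tested, none passed at E5 with edgeR or DESeq2 (4 had an unadjusted p under 0.05 with edgeR), 1 was lower on the left at E6.5, 2 lower at E8 and 1 higher at E9.5 (3 called there with the replicate block), where 0.575% of all genes were lower at E6.5, 6.71% lower at E8 and 5.13% higher at E9.5. Of these 4 calls only that of ITGB1 at E8 stood with each library left out in turn, and it was lost with the adrenal score as a covariate (log2 -0.27, adjusted p = 0.119). At E8 10 of 12 adrenal and chromaffin markers were higher on the left, against 7.54% of all genes tested. That score lay between 3.37 and 4.954 in left and between 1.701 and 1.829 in right libraries there. Side and score can therefore hardly be told apart in that fit, and the part of adrenal tissue was not tested. At E5 the list's median log2 difference was -0.22, beside 1.07 for TGFBI. Over time 2 were higher and 5 lower at E9.5 than at E5 in left gonads, and 1 higher and 5 lower in right gonads, where TGFBI was higher. Over all genes tested 18.2% were higher and 16.0% lower in left gonads, and 21.5% and 16.1% in right gonads. The call of ITGAV in left gonads was lost without any 1 of 3 libraries and with the adrenal score as a covariate (adjusted p = 0.171, edgeR). That of TGFBR1 in right gonads was lost without E9.5 right replicate 3 (0.054) and in the fit of the 2 groups alone (0.065). TGFB2, a ligand of the family that induces TGFBI in human cells, changed by log2 -2.23 ± 0.20 SE in left and -2.38 ± 0.20 SE in right gonads. ITGB3, an integrin beta chain, changed by -1.91 ± 0.19 SE in left and -2.58 ± 0.19 SE in right gonads, and SMAD7, an inhibitor of the pathway, by 2.62 ± 0.29 SE and 2.42 ± 0.29 SE. Each of these 6 changes passed (adjusted p between 3.1e-09 and 1.5e-06, edgeR) and stood in every alternative tried.

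Across libraries some of the members followed each other closely. Pearson's r of log2 CPM was 0.875 between EMX2 and KRT7, 0.848 between LHX9 and KRT7 and 0.799 between WT1 and GATA4, and it lay between -0.193 and 0.371 between TGFBI and the other members. These values describe libraries that share side and stage. Among 12122 genes with a symbol and a mean of at least 2 CPM, those most like each member over the 24 libraries are given by r. SPSB1 and NKAIN4 were among the 3 most like EMX2 (r of 0.938 and 0.904), CERS6, TRPA1 and LPAR2 most like LHX9 (0.914 to 0.946), and ARFGEF3, NPM3 and TRIM2 most like KRT7 (0.932 to 0.938). DHX36 was among the 3 most like both WT1 (0.866) and GATA4 (0.860), with PDE1B and CACNG3 for WT1 and DAB2IP and LSP1 for GATA4. DOCK5, MPP1 and MEOX1 were most like KRT18 (0.843 to 0.849), and RPH3A, RALY and LINGO1 most like TGFBI (0.807 to 0.873).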

How the data were processed

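The data are read counts per gene for 24 libraries, deposited by the authors as whole numbers with no normalization. Reads were trimmed with Trim Galore 0.6.7, aligned with STAR 2.7.10a to GRCg6a and counted with HTSeq 2.0.0, per the submitters' processing notes. Not given in the sources used here are how HTSeq treated strand and shared reads.

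Genes were kept by filterByExpr of edgeR 4.0.16 (limma 3.58.1, R 4.3.3; minimum count 10, minimum total 15), which left 16694 genes. TMM factors scaled the libraries, and a quasi-likelihood model with 8 group means took in all 24 of them (biological coefficient of variation 0.212). The 14 comparisons were left minus right at each stage, 4 stage differences in each gonad, the left-right difference at E9.5 minus that at E5, and an F test of whether that difference varied among stages. P-values were adjusted by Benjamini and Hochberg's method over the 16694 genes, with a threshold of 0.05, and an SE is the size of a log2 change over the root of its F. CPM are on TMM-scaled totals. Code was tested on simulated counts with known changes. Counts of GATA4 and KRT8 reads as denominators were chosen after the data were seen.

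The alternatives were DESeq2 size factors in edgeR, no filter on low counts, DESeq2 1.42.0, a fit of the compared groups alone, a replicate block, a mesonephros or an adrenal and chromaffin score (mean log2 CPM of the list) as a covariate, leaving out the 2 libraries with liver transcripts, and leaving out each library in turn. Between the sides, and for changes of the side difference, the block paired left and right libraries of the same number and stage. For stage differences within a gonad it was another model, with the replicate number as a factor over all libraries, and that was not checked. The pairing was checked by the correlation of same-numbered left and right libraries in their deviations from the group means. It was above 0.1 in all 3 pairs at E5 (0.351 to 0.524) and at E9.5 (0.275 to 0.422), so the numbers are taken to pair libraries at those stages, from the data and not from the labels, and in 3 of 6 pairs at E6.5 and E8.

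The 7 members and all lists were chosen with earlier results of these data known. Named besides the members are, in each other list, at most the 4 genes that passed and changed most in a comparison, the 3 genes most like each member, and marker genes beside a result they touch. KRT8 is named as the partner of KRT18, and genes without a call for their lack of reads, outside this rule. LRRN4, BNC1 and PODXL are named beside the latter for their counts. Gene neighbours are from RefSeq's table of genes, of assembly GRCg7b, used for order only. Gene sequences and coordinates were not used here. Some genes that meet these rules, and 2 lists that hold them, are not reported here.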

Additional observations from a re-analysis of the deposited data

Results flagged for a closer look

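The side difference of TGFBI changed between stages, by log2 -1.18 between E5 and E9.5 and with an adjusted p of 0.0178 over the 4 stages (edgeR). In CPM it was higher on the left at E5 and E6.5 and overlapped at E8 and E9.5. The libraries without which the 2 calls were missed are given with the result.

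CLDN1, a tight junction protein of epithelia, changed in the same direction. Its side difference moved by log2 -1.43 between E5 and E9.5, a call lost without E9.5 left replicate 3 (adjusted p = 0.051), with the adrenal score as a covariate (0.18) and in the fit of the compared groups alone (0.072). Group means from E5 to E9.5 were 229.9, 257, 225.6 and 124.6 CPM in left and 140.3, 155.7, 200.7 and 205.1 CPM in right gonads. Over the 4 stages the adjusted p was 0.0376 (edgeR), and it missed the threshold without any 1 of 14 of the 24 libraries, with the mesonephros score (0.056) or the adrenal score (0.083) as a covariate and without the 2 libraries with liver transcripts (0.053).

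NR0B1 had a side difference that varied over the 4 stages (adjusted p = 0.0285, edgeR), with means of 19.9, 38.9, 63.2 and 50.3 CPM in left and 23.1, 48.8, 141 and 85.1 CPM in right gonads. That call was missed without any 1 of 15 of the 24 libraries, with the adrenal score as a covariate (adjusted p = 0.085) and without the 2 libraries with liver transcripts (0.12). NR0B1 is also an adrenal gene, and adrenal and chromaffin markers summed to between 761.9 and 1921 CPM in left and between 215.7 and 245.5 CPM in right libraries at E8, while NR0B1 was lower on the left there. Their part in the result was not tested further.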

How the results depend on the processing

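Of 98 combinations of a member and a comparison, 35 passed the test, 14 of them in every alternative tried and 21 not in all. The direction turned in 42 alternatives, none with a call before or after. Turned values (log2) with the mesonephros score were -0.083 for WT1, -0.042 for GATA4 and 0.25 for KRT18 between the sides at E6.5, 0.30 for KRT18 at E8, -0.23 for GATA4 and 0.55 for KRT18 at E9.5, -0.0055 for WT1 at E9.5 against E5 on the left, 0.085 for TGFBI at E6.5 against E5 on the right and 0.12 for KRT18 in the change of the side difference. With the adrenal score they were 5.24e-05, 0.45 and 0.13 for KRT18 between the sides at E6.5, E8 and E9.5, 0.26 for KRT18 at E8 against E6.5 on the left and 0.063 for TGFBI at E6.5 against E5 on the right. Without the 2 libraries with liver transcripts TGFBI was at 0.080 between the sides at E8 and WT1 at -9.7e-04 at E9.5 against E5 on the left, where the fit of the compared groups gave -0.0016.

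With each library left out in turn, values that turned ran as follows. Between the sides they ran from -0.040 to 0.20 (WT1, E5), -0.044 to 0.11 (WT1, E6.5), -0.49 to 0.20, -0.24 to 0.26 and -0.39 to 0.17 (KRT18 at E6.5, E8 and E9.5), and -0.11 to 0.10 and -0.20 to 0.16 (TGFBI at E8 and E9.5). On the left they ran from -0.22 to 0.015 (EMX2, E6.5 against E5), -0.0087 to 0.055 (KRT7, E8 against E6.5), -0.28 to 0.063 (KRT18, E8 against E6.5), -0.060 to 0.034 (WT1, E9.5 against E8) and -0.081 to 0.10 (WT1, E9.5 against E5). On the right they ran from -0.51 to 0.18 (KRT18) and -0.20 to 0.074 (TGFBI) at E6.5 against E5, and -0.58 to 0.16 (KRT18, E8 against E6.5). The change of the side difference of GATA4 ran from -0.42 to 0.029.

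Counts of members called held to within 1.5 times in 159 of 219 alternatives. With a library left out they ran from 2 to 4 at E5, and stayed at 3, 2 and 3 at E6.5, E8 and E9.5 between the sides. On the left they ran from 0 to 2 (E6.5 against E5), 0 to 2 (E8 against E6.5), 0 to 0 (E9.5 against E8) and 3 to 4 (E9.5 against E5). On the right they ran from 1 to 3, 0 to 4, 2 to 3 and 4 to 5 in the same order, and from 0 to 1 and 0 to 2 for the 2 tests of a changed side difference. For E6.5 against E5 on the left the count was 0 with the compared groups alone, 5 with the mesonephros score, 1 with the adrenal score and 0 without the libraries with liver transcripts. For E8 against E6.5 on the left it was 3 with DESeq2, the compared groups alone or the replicate number as a factor. It was 2 with the mesonephros score, 0 with the adrenal score and 2 without the liver libraries. For E9.5 against E8 on the left it was 2, 2 and 1 with DESeq2, the compared groups alone and the mesonephros score. For E9.5 against E5 on the left it was 2 with the adrenal score. On the right it was 1 without the liver libraries at E8 against E6.5, and at E9.5 against E8 it was 2 with DESeq2 size factors, with no filter and without the liver libraries, and 0 with the compared groups alone. For the change of the side difference it was 0 with the compared groups alone and 3 with the replicate block. For the test over the 4 stages it was 2 with DESeq2 size factors, no filter or the mesonephros score, 3 with DESeq2, 4 with the block and 0 without the liver libraries, EMX2 being gained in each of these but the last, where TGFBI was lost. The cause was not tested in any of these.

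With the replicate block, LHX9 at E5 and the changes of the side difference of EMX2 and KRT7 passed, as given with those results, and no other call of a member between the sides at E5 or E9.5 changed. The block moved the count over all genes to 814 at E5, 3343 at E9.5 and 692 for the change of the side difference. At E6.5 and E8, where the numbers did not pair all libraries (correlations from -0.162 to 0.532), the block added LHX9 at E8 (adjusted p = 0.015), and in the test over the 4 stages EMX2, KRT7 and LHX9 (adjusted p = 0.0099, 0.034 and 0.027). Over the whole table, counts of genes called over all alternatives ran from 222 to 814 at E5 (490), 77 to 862 at E6.5 (541), 1349 to 3413 at E8 (2379) and 818 to 3343 at E9.5 (2171) between the sides. For successive steps they ran from 962 to 2043 (1740), 1902 to 3774 (3235) and 46 to 737 (314) on the left, and from 1618 to 2925 (2516), 2202 to 4001 (3427) and 3 to 1141 (536) on the right. They ran from 240 to 692 (368) for the change of the side difference and from 159 to 828 (342) over the 4 stages. With 3 libraries a group, differences smaller than the spread between libraries were not detectable. The effect of depth was not tested.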
